A study of Mus musculus with 12 samples.

Results

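The genes described here are 40 genes of glycolysis and of the response to low oxygen, chosen by name with earlier results of these data known. The shares of all genes given beside their counts are therefore a description and not a test. Probe sets paired with 1 gene only were used, and a gene with several was read from the one that was brightest on average across the 12 arrays. Of the 40 genes, 36 were measured, out of 17097 genes tested. Gpi1, Eno1 and P4ha1 had no probe set under those symbols in the annotation used here, and the Pgam1 probe set was also paired with Pgam1-ps1, so these 4 genes were not analysed.

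Glycolysis breaks glucose down to pyruvate in the cytosol and yields ATP without oxygen. Lactate dehydrogenase turns pyruvate into lactate, which leaves the cell through monocarboxylate transporters. Many of these genes are targets of the hypoxia-inducible factors (HIFs), whose α subunits are hydroxylated by the EGLN enzymes when oxygen is plentiful and then degraded. Basal keratinocytes are known to rely on glycolysis, and the epidermis over a fresh wound lies next to tissue whose vessels were cut.

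Basal cells of the interfollicular epidermis and infundibulum, α6-integrin-positive and CD34-negative, were sorted from tails of CD1 mice 4 days (D4) or 7 days (D7) after a wound of 3 mm in diameter. A 4 mm punch around the wound gave the LE, the leading edge of the migrating epidermis, a 6 mm punch gave the proliferative hub behind it, and skin far from the wound was the control. Each array held the RNA of 300 sorted cells from a pool of 5 mice, and each of the 6 groups had 2 arrays. The labels call these biological replicates, but whether separate pools were used is not given, so p-values measure the spread between these samples, which may be technical. The labels give no age or sex for the pooled mice, name no drug or transgene in any group, and do not say how purely a punch isolates a region. Every group went through the same warm trypsin step.

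Levels are deposited log2 values, so a difference of 1 is a change of 2-fold, and levels of different genes were not compared because each probe set has its own brightness. The array medians ran from 5.40 to 5.47 at D4 and from 4.25 to 4.28 at D7, so the days were compared only through differences from same-day arrays. A gene was called where its adjusted p in the limma fit over all 12 arrays was under 0.05. All 9 basal markers were above the array median on every array, with Krt5 at 11.93 to 12.72 and Krt14 at 11.56 to 12.58. Among them, Krt15 and Dst were called lower at the LE on both days (Krt15 by -2.48 and -1.88, adjusted p = 0.00256 and 0.0108), and Itga6 and Itgb1 higher at D4. Cd34, used to sort out bulge cells, read 3.08 to 4.94. Of the 6 bulge markers measured, Sox9 and Nfatc1 read 8.51 to 10.01 and 8.38 to 10.43. Tcf7l1, Lgr5 and Lhx2 read 5.73 to 7.61, 4.31 to 6.16 and 3.69 to 4.66. Sox9 was called lower at the D4 LE (-0.61, adjusted p = 0.0366). At an unadjusted p under 0.05, 3 of the 6 were higher there and 2 lower, with a median of 0.21. Of all genes, 25.6% had such a p there in either direction. Of the endothelial markers, 5 or 6 of 7 were above the array median at the LE at D7, and 4 or 5 in control skin. Their mean level was 5.32 to 5.40 at the LE at D7 against 4.42 to 4.72 in control skin. At D4 their mean level was 5.97 to 6.29 at the LE and 5.36 to 6.47 in control skin. Of 6 melanocyte genes, Dct, Tyrp1, Pmel and Mlana were brighter on control D4 replicate 1 and hub D4 replicate 2 than on the other D4 arrays. Tyrp1 read 8.48 and 9.63 on them, against 4.42 to 4.83 on the others. Tyr read 4.61 and 6.11 against 4.12 to 4.49, and Sox10 6.64 and 6.17 against 5.97 to 6.32. On the D4 controls, the infundibulum genes Krt79, Cst6 and Defb6 read 10.38 and 7.85, 10.08 and 6.95, and 10.89 and 8.04. These genes were also higher on hub D4 replicate 1 than on hub D4 replicate 2. Lrig1, Plet1 and Lgr6, of the same list, read 7.66 and 7.49, 11.62 and 11.56, and 6.97 and 6.80 on the D4 controls. H2-Ab1 read 7.78 and 3.59 on the D7 controls. At the D7 LE against control, Plet1 and Lgr6 of 6 infundibulum markers and Dcn of 7 fibroblast markers were called lower (-0.86, -0.80 and -2.59). At the D4 LE, only Cd68 of 9 leukocyte markers and Epcam of 6 Langerhans cell markers were called, both higher (1.14 and 0.61). The list medians there were -0.03 for leukocytes and 0.085 for Langerhans cells. Of all genes, 8.3% were called higher and 5.83% lower at the D4 LE, and 9.25% and 5.37% at the D7 LE. The part of these cells and markers in the results was not tested. Without control D4 replicate 1, 17 of the 36 genes were called for LE against control at D4 in place of 22, and without control D4 replicate 2, where Tyrp1 was low, 15 were. For LE against hub at D4, 10 became 5 without hub D4 replicate 2, 6 without hub D4 replicate 1 and 4 without LE D4 replicate 1. In sorted pools, fewer cells of a type and less RNA per cell cannot be told apart.

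Of the 36 genes, 14 were called higher at the LE on both days, among them Slc16a3, Pgk1, Ldha, Hif1a, Bnip3 and Vegfa, and 3 different genes in all were called in the proliferative hub. The share of all genes called higher on both days was not counted and cannot exceed the smaller single-day share, 8.3%. Other genes of the same pathways were called in both directions. At D4, 21 of the 36 genes were called higher at the LE than in control skin, beside 8.3% of all genes tested, and Pfkm was called lower, beside 5.83%. At D7, 15 were called higher, beside 9.25%, and Pfkm and Adm were called lower, beside 5.37%. The median log2 fold change of the 36 genes was 0.49 at D4, against 0.03 over all genes, and 0.33 at D7, against 0.02. Both LE arrays were above both control arrays for 28 of the 36 genes at D4, where 29.2% of all genes were, and for 22 at D7, where 31.5% were.

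In the proliferative hub, 1 gene, Ddit4, was called higher than control at D4, beside 0.222% of all genes, and 0 were called lower by limma, beside 0.105%. At D7, Slc16a3 was called higher, beside 0.591%, and Adm lower, beside 0.17%. With no adjustment, 11 genes had a p under 0.05 in the upward and 1 in the downward direction at D4, and 11 and 2 at D7, while 11% and 12.7% of all genes had such a p in either direction. The hub medians were 0.19 at D4 and 0.16 at D7, against 0.01 and 0.02 over all genes, and both hub arrays were above both control arrays for 21 of the 36 genes at D4, beside 21.2% of all genes, and for 16 at D7, beside 25.8%. The LE and hub comparisons share their control arrays, so their values are given side by side and not set against each other.

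Directly against the hub, the LE had 9 genes called higher at D4, beside 2.61% of all genes, and Pfkm called lower, beside 2.15%. At D7, 4 genes were called higher, beside 1.33%. No gene was called lower by limma at D7, beside 1.4% of all genes. At an unadjusted p under 0.05, 17 of the 36 genes were higher and 1 lower at D4, and 12 and 3 at D7. Of all genes, 16.3% at D4 and 15.8% at D7 had such a p in either direction. The median difference was 0.28 at D4, against 0.03 over all genes, and 0.21 at D7, against 0.01. Control, hub and LE arrays followed each other upwards without overlap for 18 of the 36 genes at D4, where 6.78% of all genes did so, and for 14 at D7, where 9.43% did. Stepwise on both days were Slc2a1, Slc16a3, Pfkl, Aldoa, Tpi1, Gapdh, Pgk1, Pkm, Ldha, Hif1a, Bnip3l and Vegfa. The share of all genes stepwise on both days was not counted and cannot exceed 6.78%.

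**Figure D1:**
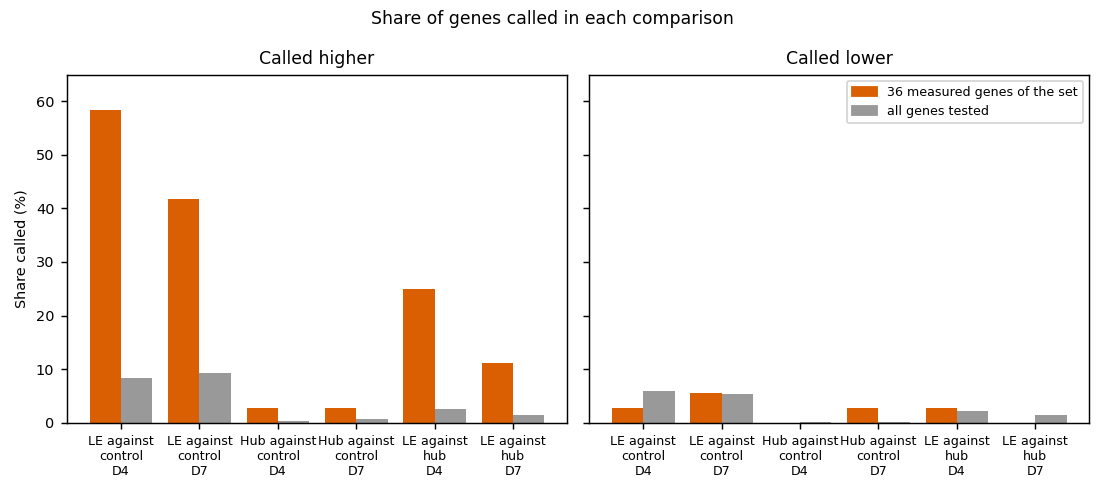
Share of genes called higher (left) or lower (right) in each comparison, in percent, for the 36 measured genes of the set (orange) and for all 17097 genes tested (grey). The orange bars for the LE against control reach 58.3% at D4 and 41.7% at D7, above grey bars of 8.3% and 9.25%, and the bars for called lower stay under 6%.

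HIFs bind DNA at sites with the core letters ACGTG or GCGTG, so the promoter windows of the genes were read for these letters on both strands. A window runs from 250 bases before to 50 bases after a RefSeq transcription start in GRCm38.p6, and 31 of the 36 genes had at least 1. ACGTG was found for 22 of the 31 genes, or 71%, and in 21.8% of the 27025 genes with a window. Either core was found for 28 of the 31, or 90.3%, and for 46.7% of all genes. By window, ACGTG was in 26 of 47, or 55.3%, against 19.6% of all 32851 windows. Of the 19 genes with a window that were called higher at the LE on either day, 15 held ACGTG, and of the other 12, 7 did. These are letter matches in a set of genes known for hypoxia, with no allowance for base composition, and no binding was measured. The genes whose windows follow are the lactate exporter Slc16a3, Bnip3 and P4ha2, which were called higher at the D4 LE by more than 2-fold, the enzymes Ldha and Pgk1, and Gys1, which was called higher by more than 2-fold too and holds neither core. Capitals mark both cores on either strand, where CACGT and CACGC are ACGTG and GCGTG on the opposite strand, and CACGTG counts once on each strand.
Slc16a3: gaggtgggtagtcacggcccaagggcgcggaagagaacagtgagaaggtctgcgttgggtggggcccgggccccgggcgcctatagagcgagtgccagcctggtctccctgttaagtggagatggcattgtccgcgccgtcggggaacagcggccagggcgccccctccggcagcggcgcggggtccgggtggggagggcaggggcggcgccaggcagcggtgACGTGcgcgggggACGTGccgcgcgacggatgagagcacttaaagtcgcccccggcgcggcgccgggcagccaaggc
Bnip3: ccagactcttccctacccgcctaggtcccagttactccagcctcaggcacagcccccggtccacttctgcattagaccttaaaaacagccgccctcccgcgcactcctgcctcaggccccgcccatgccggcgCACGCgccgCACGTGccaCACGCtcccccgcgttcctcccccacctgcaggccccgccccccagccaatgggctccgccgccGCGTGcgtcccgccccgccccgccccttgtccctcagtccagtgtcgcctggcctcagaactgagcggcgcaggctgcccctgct
P4ha2: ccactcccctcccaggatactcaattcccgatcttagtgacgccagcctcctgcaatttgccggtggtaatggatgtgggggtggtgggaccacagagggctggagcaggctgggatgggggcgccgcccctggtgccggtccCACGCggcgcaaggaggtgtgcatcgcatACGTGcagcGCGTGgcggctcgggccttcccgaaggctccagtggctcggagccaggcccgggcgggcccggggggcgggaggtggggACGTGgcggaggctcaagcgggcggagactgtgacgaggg
Ldha: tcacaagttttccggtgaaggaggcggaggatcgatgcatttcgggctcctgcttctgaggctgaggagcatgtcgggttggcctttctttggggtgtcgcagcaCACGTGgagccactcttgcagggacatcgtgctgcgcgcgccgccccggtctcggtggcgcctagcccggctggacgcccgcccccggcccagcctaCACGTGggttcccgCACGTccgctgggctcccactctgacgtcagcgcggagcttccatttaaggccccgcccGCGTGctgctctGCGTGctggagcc
Pgk1: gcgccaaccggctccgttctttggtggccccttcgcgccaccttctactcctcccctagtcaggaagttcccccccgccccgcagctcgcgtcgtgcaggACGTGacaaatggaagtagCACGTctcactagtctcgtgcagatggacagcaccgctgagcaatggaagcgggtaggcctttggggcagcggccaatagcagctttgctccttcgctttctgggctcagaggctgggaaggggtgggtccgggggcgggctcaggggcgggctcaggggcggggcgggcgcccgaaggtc
Gys1: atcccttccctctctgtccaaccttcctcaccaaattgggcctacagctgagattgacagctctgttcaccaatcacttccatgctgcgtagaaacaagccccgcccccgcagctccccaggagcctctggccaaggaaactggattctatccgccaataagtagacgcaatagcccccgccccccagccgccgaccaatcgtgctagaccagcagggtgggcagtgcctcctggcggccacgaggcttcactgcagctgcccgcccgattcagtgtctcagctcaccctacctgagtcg
The windows lie at chr11:120948817-120949116, chr7:138909457-138909756 (minus strand), chr11:54100674-54100973, chr7:46845554-46845853, chrX:106186850-106187149 and chr7:45434589-45434888, and the sequences are given in the direction of the gene. Ldha alone of these genes had 2 windows, and the one with more matches to ACGTG is shown. It held all 5 matches to ACGTG of the gene, of which 4 come from its 2 copies of CACGTG, and the other window held none. Slc16a3 held 2 copies of ACGTG, which begin 27 and 14 bases before the start. In Bnip3, CACGTG lies between matches to GCGTG.

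Transport of lactate was the step that changed most. Slc16a3 encodes MCT4, the lactate exporter of glycolytic cells. At D4 it read 7.27 and 7.85 in control skin, 9.13 and 8.57 in the hub and 10.75 and 10.30 at the LE. At D7 it read 5.59 and 5.64 in control skin, 6.97 on both hub arrays and 8.64 and 8.51 at the LE. The groups followed each other upwards without overlap on both days. The LE was 7.81-fold above control at D4 (log2 fold change 2.97, SE 0.23, adjusted p = 4.86e-05) and 7.78-fold at D7 (2.96, SE 0.23, adjusted p = 6.58e-05). The hub was 2.44-fold above control at D4, which did not pass (adjusted p = 0.0584), and 2.56-fold at D7 (adjusted p = 0.0336). The LE exceeded the hub 3.2-fold at D4 (adjusted p = 0.00325) and 3.04-fold at D7 (adjusted p = 0.00869). Both LE calls against control held when any array was left out. The hub call at D7 was lost in 6 of 12 such fits, with an adjusted p of up to 0.249 without hub D7 replicate 2, and the call of LE against hub at D7 in 3, with up to 0.0849 without LE D7 replicate 1.

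Slc2a1 encodes GLUT1, the main glucose importer of keratinocytes, and moved far less. It read 11.72 on both control arrays, 11.86 and 11.96 in the hub and 12.04 and 12.18 at the LE at D4, and 10.55 and 10.40, 10.71 and 10.76, and 11.04 and 10.90 in the same order at D7. The steps were small but did not overlap on either day. The LE change was 1.31-fold at D4 (log2 fold change 0.39, SE 0.11, adjusted p = 0.0348) and 1.41-fold at D7 (0.49, SE 0.11, adjusted p = 0.013). Leaving out 1 array ended the D4 call in 8 of 12 fits (adjusted p up to 0.161 without LE D4 replicate 2) and the D7 call in 2 (up to 0.0983 without LE D7 replicate 1). Slc2a3, which encodes the high-affinity importer GLUT3, differed by -0.19 and -0.12 at the LE, was not called, and was under the array median on 3 of 12 arrays.

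**Figure D2:**
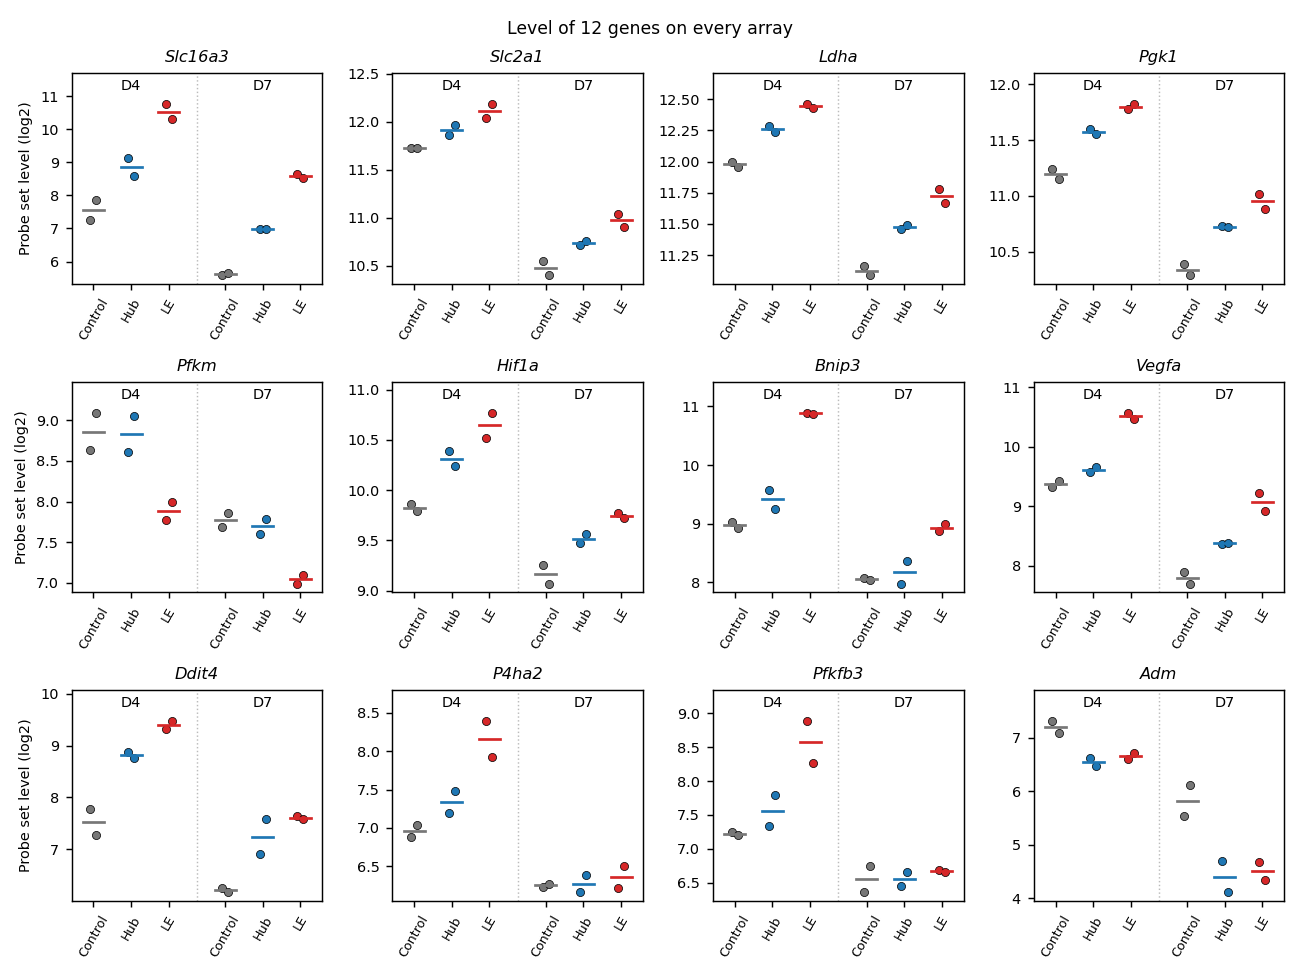
Level of 12 genes on every array, as log2 probe set values with a scale of its own in each panel, for control (grey), hub (blue) and LE (red) at D4 and D7. Points are arrays and lines the means of 2 arrays. Slc16a3 climbs in steps on both days, Bnip3 stands out at the LE, P4ha2 and Pfkfb3 stand out at D4 and not at D7, and Pfkm at the LE and Adm in both wound regions lie under control.

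Of the 13 measured enzymes of glycolysis, 8 were called higher and 1 lower at the D4 LE, and 6 and 1 at the D7 LE. Of all genes, 8.3% were called higher and 5.83% lower at D4, and 9.25% and 5.37% at D7, so the lower counts are near their share. The median log2 fold change of the 13 enzymes was 0.47 at D4 and 0.44 at D7. The 3 isoforms of phosphofructokinase, which commits sugar to glycolysis, did not move together. The liver-type subunit Pfkl read 10.25 and 10.18 in control skin, 10.76 and 10.74 in the hub and 11.21 and 10.92 at the LE at D4. At D7 it read 9.26 and 9.42, 9.79 and 9.75, and 10.32 and 10.21. It stepped up without overlap on both days, by 1.81-fold at the LE at D4 (log2 fold change 0.85, SE 0.12, adjusted p = 0.00122) and 1.9-fold at D7 (0.93, SE 0.12, adjusted p = 0.000949). The muscle-type subunit Pfkm read 8.63 and 9.09 in control skin, 8.61 and 9.05 in the hub and 7.77 and 7.99 at the LE at D4. Its D7 levels were 7.69 and 7.86, 7.60 and 7.79, and 6.99 and 7.10. Control and hub overlapped on both days and the LE lay under both. Pfkm fell 1.97-fold at the LE against control at D4 (log2 fold change -0.98, SE 0.19, adjusted p = 0.00715) and 1.66-fold at D7 (-0.73, SE 0.19, adjusted p = 0.0279), and 1.93-fold against the hub at D4 (adjusted p = 0.0194), which was lost in 2 of 12 fits without 1 array (up to 0.148 without hub D4 replicate 2). The D7 call was lost in 4 of 12 fits without 1 array, with an adjusted p of up to 0.15 without LE D7 replicate 1, and the D4 call in 1, without LE D4 replicate 1 (adjusted p = 0.0522). The platelet-type Pfkp was called higher at D4 only, by 0.37 (adjusted p = 0.0407), and its other probe set was called lower, by -0.58 (adjusted p = 0.021). A second Pfkl probe set, with a mean level of 5.51, gave 0.10 at D4 and -0.35 at D7, neither of them called.

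The hexokinases trap glucose in the cell. Hk2, the inducible form, was higher at the LE by 0.53 on both days (adjusted p = 0.0107 at D4 and 0.0106 at D7) and differed from control by 0.03 and 0.01 in the hub. It was also called higher against the hub, by 0.49 at D4 (adjusted p = 0.0312) and 0.52 at D7 (adjusted p = 0.0403). Leaving out 1 array ended these calls against the hub in 10 and 8 of 12 fits, with adjusted p of up to 0.209 without hub D4 replicate 2 and 0.195 without hub D7 replicate 2, and the calls against control in 2 and 4 (up to 0.0767 without control D4 replicate 2 and 0.063 without LE D7 replicate 1). Hk1, the housekeeping form, was called at D4 only (0.48, adjusted p = 0.0247), with 0.31 at D7 (adjusted p = 0.118).

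Of the 5 measured enzymes below the triose phosphates, Pgk1, Pkm and Ldha were called higher at the LE on both days and Gapdh and Eno2 on neither, and Tpi1, the step before them, was called higher on both. Tpi1, which interconverts the triose phosphates, read 10.69 and 10.72 in control skin, 11.15 and 11.07 in the hub and 11.32 and 11.45 at the LE at D4, and 9.40 and 9.23, 9.66 and 9.64, and 9.98 and 9.84 at D7. Pgk1, an ATP-forming kinase, read 11.24 and 11.15, 11.60 and 11.55, and 11.78 and 11.82 at D4, and 10.39 and 10.29, 10.73 and 10.72, and 11.02 and 10.88 at D7. Ldha, which makes lactate, read 12 and 11.96, 12.29 and 12.24, and 12.46 and 12.43 at D4, and 11.16 and 11.09, 11.46 and 11.49, and 11.78 and 11.67 at D7. For all 3 genes, control, hub and LE followed each other without overlap on both days. At the LE, Tpi1 rose 1.6-fold at D4 and 1.51-fold at D7 (adjusted p = 0.00242 and 0.00515). Pgk1 rose 1.52-fold and 1.53-fold (log2 fold changes 0.60 and 0.61, SE 0.10, adjusted p = 0.00294 and 0.00305). Ldha rose 1.38-fold and 1.52-fold (adjusted p = 0.00845 and 0.00256). Pkm, the pyruvate kinase, was called as well, by 0.41 (adjusted p = 0.0136) and 0.57 (adjusted p = 0.00281). In the hub, Pgk1 differed by 0.38 on both days and Ldha by 0.28 and 0.35, and neither was called. Tpi1 at D7 lost its call without LE D7 replicate 1 (adjusted p = 0.0511). Ldha, Pgk1 and Pkm read 10.29 or more on all arrays, where the brightest probe set of an array read 12.34 to 13.11. Gapdh was nearest to that limit, at 13.04 and 13.05 at the D4 LE, where the array maxima were 13.11 and 13.05.

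The remaining enzymes were not called in any comparison. Aldoa, the main aldolase here by name, differed by 0.32 and 0.35 at the LE (adjusted p = 0.0938 and 0.064), and another of its probe sets was called at D7 (0.47, adjusted p = 0.0256). Gapdh, often used as a reference gene, differed by 0.20 and 0.25 (adjusted p = 0.191 and 0.0855), and its arrays still stepped from control to hub to LE without overlap on both days. Aldoc differed by 0.54 and 0.44, and its other probe set by -0.17 and -0.07. Eno2, the neuronal enolase, was under the array median on all 12 arrays. The probe sets of Gapdh, Aldoa, Tpi1 and Ndrg1 are of the kinds that may read related transcripts too.

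**Figure D3:**
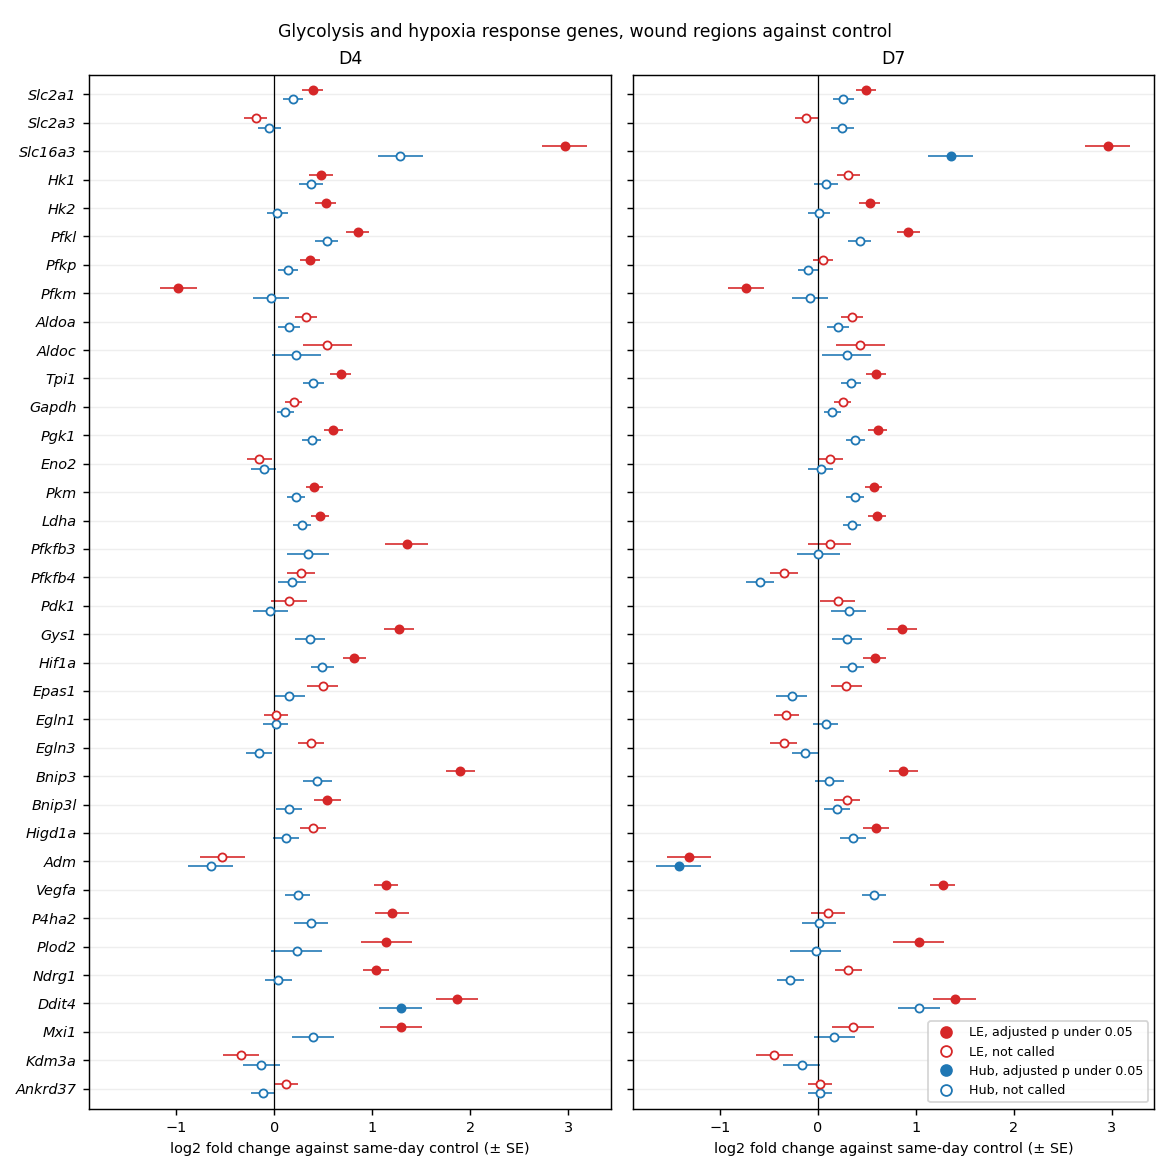
log2 fold change against same-day control of the 36 measured genes at D4 (left) and D7 (right), for the LE (red) and the hub (blue), with bars of 1 SE and filled points where the adjusted p was under 0.05. Slc16a3 lies near 3 at the LE on both days, most LE points lie to the right of 0, Pfkm and Adm lie to the left, and 3 hub points are filled in all.

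Of 4 genes that steer the flux beside the glycolytic chain, Pfkfb3 and Gys1 were called higher at the D4 LE and Gys1 at the D7 LE. Pfkfb3 makes the activator of phosphofructokinase. It read 7.25 and 7.20 in control skin, 7.34 and 7.79 in the hub and 8.88 and 8.27 at the LE at D4, and 6.36 and 6.75, 6.45 and 6.66, and 6.69 and 6.66 at D7. At D4 the groups stepped up without overlap, and at D7 both LE arrays lay within the span of the controls. Another Pfkfb3 probe set, with a mean level of 4.72, gave 0.60 at the D4 LE (adjusted p = 0.0147) and -0.01 at D7. With the probe set used, the LE change was 2.56-fold at D4 (log2 fold change 1.35, SE 0.22, adjusted p = 0.00291) and 1.09-fold at D7 (0.12, adjusted p = 0.803). Against the hub it was 2.01-fold at D4 (adjusted p = 0.0286), a call lost in 2 of 12 fits without 1 array, with up to 0.161 without LE D4 replicate 1.

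Gys1, muscle-type glycogen synthase, read 7.80 and 8.0 in control skin, 8.30 and 8.24 in the hub and 9.23 and 9.12 at the LE at D4, and 6.52 and 6.74, 6.70 and 7.15, and 7.45 and 7.53 at D7. The LE stood above both other groups on both days, and the hub overlapped control at D7. It rose 2.42-fold at the LE at D4 (log2 fold change 1.28, SE 0.15, adjusted p = 0.000568) and 1.81-fold at D7 (0.86, adjusted p = 0.00522), and 1.88-fold above the hub at D4 (adjusted p = 0.00952), which was lost in 2 of 12 fits without 1 array (up to 0.0704, without hub D4 replicate 2). Pdk1, the kinase that shuts pyruvate out of the mitochondrion and a well-known HIF target, was not called. It read 9.24 on both control arrays, 9.18 and 9.23 in the hub and 9.23 and 9.55 at the LE at D4, and 7.90 and 7.28, 7.88 and 7.93, and 7.81 and 7.77 at D7. The groups overlapped, and the LE differences were 0.15 (adjusted p = 0.717) and 0.20 (adjusted p = 0.558). Another Pdk1 probe set, with a mean level of 7.43, gave -0.43 at D4 and was called lower at D7 (-0.73, adjusted p = 0.0187), and one more gave -0.07 at D4. Pfkfb4, a relative of Pfkfb3, was not called, with 0.28 at D4 and -0.34 at D7.

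Hif1a encodes the oxygen-regulated subunit of HIF-1. It read 9.86 and 9.79 in control skin, 10.39 and 10.24 in the hub and 10.52 and 10.77 at the LE at D4, and 9.26 and 9.07, 9.47 and 9.56, and 9.77 and 9.72 at D7. Both days showed an upward step without overlap. The LE change was 1.76-fold at D4 (log2 fold change 0.82, SE 0.12, adjusted p = 0.00162) and 1.5-fold at D7 (0.58, SE 0.12, adjusted p = 0.0102), and the hub differences of 0.49 and 0.35 were not called. A second Hif1a probe set, with a mean level of 7.16, gave -0.37 at D4 and 0.16 at D7, neither called. With the mean of its probe sets, Hif1a was called on neither day (0.22, adjusted p = 0.42, and 0.37, adjusted p = 0.137), and the D7 call was also lost in 2 of 12 fits without 1 array (up to 0.0766, without control D7 replicate 2). Epas1, which encodes the HIF-2 subunit, differed by 0.50 (adjusted p = 0.0695) and 0.29. The HIF hydroxylases Egln1 and Egln3 were not called with the probe sets used. Egln3, itself a HIF target, differed from control by 0.38 at D4 and by -0.35 at D7, and from the hub by 0.53 at D4 (adjusted p = 0.0572). Its other probe set was called higher against the hub at D4 (0.71, adjusted p = 0.0316), as was Egln3 with the mean of both, with centring, without dim genes and with another prior.

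Bnip3 and Bnip3l encode receptors for mitophagy, the removal of mitochondria, and Bnip3 was called higher at the LE on both days. Bnip3, a receptor on damaged or unneeded mitochondria, read 9.03 and 8.93 in control skin, 9.58 and 9.26 in the hub and 10.89 and 10.87 at the LE at D4. At D7 it read 8.07 and 8.05, 7.98 and 8.37, and 8.88 and 8.99. The LE lay above both other groups on both days, and the hub overlapped control at D7. The rise was 3.73-fold at D4 (log2 fold change 1.90, SE 0.15, adjusted p = 5.22e-05) and 1.83-fold at D7 (0.87, SE 0.15, adjusted p = 0.00407). Against the hub it was 2.75-fold at D4 (adjusted p = 0.000688) and 1.69-fold at D7 (adjusted p = 0.0306), the last lost in 5 of 12 fits without 1 array, with up to 0.144 without hub D7 replicate 1. Bnip3l, its relative, was called at D4 only (0.54, adjusted p = 0.0227), with 0.30 at D7, where another of its probe sets was called (0.70, adjusted p = 0.00966). Higd1a, a protein of the respiratory chain in hypoxia, was called at D7 only (0.60, adjusted p = 0.0149), and its 2 other probe sets gave -0.11 and -0.17 there. With the mean of all its probe sets, Higd1a was not called (adjusted p = 0.735).

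The 2 secreted factors went opposite ways. Vegfa, the main growth factor for blood vessels, read 9.33 and 9.43 in control skin, 9.57 and 9.66 in the hub and 10.57 and 10.47 at the LE at D4, and 7.90 and 7.70, 8.37 and 8.38, and 9.23 and 8.92 at D7. It stepped up without overlap on both days. The LE change was 2.21-fold at D4 (log2 fold change 1.14, SE 0.13, adjusted p = 0.000374) and 2.42-fold at D7 (1.27, SE 0.13, adjusted p = 0.000266). Against the hub, it was 1.87-fold at D4 (adjusted p = 0.00366) and 1.63-fold at D7 (adjusted p = 0.0219). Another Vegfa probe set was called higher against the hub at D4 (1.03, adjusted p = 0.0127) and not at D7 (0.67, adjusted p = 0.0967). The D7 call against the hub was lost in 3 of 12 fits without 1 array, with up to 0.157 without LE D7 replicate 1. Endothelial Cdh5 was also higher at the LE at D7, at 6.88 and 6.70 against 4.65 and 4.87 in control skin (adjusted p = 0.027) and 4.54 and 3.93 in the hub (adjusted p = 0.0342), 1 of 7 endothelial markers called, and its part in the D7 values was not tested.

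Adm encodes adrenomedullin, a vasodilator peptide and a well-known HIF target. It read 7.31 and 7.09 in control skin, 6.62 and 6.48 in the hub and 6.61 and 6.72 at the LE at D4, and 5.53 and 6.11, 4.69 and 4.11, and 4.68 and 4.33 at D7. Hub and LE lay under control on both days and overlapped each other. At D7 it was 2.49-fold lower at the LE (log2 fold change -1.32, SE 0.23, adjusted p = 0.00459) and 2.67-fold lower in the hub (-1.42, SE 0.23, adjusted p = 0.029), and at D4 the differences of -0.53 and -0.65 were not called. The hub call was lost in 5 of 12 fits without 1 array, with up to 0.236 without hub D7 replicate 2.

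Of the collagen-modifying hydroxylases, P4ha2 acts on proline and Plod2 on lysine. P4ha2 read 6.88 and 7.04 in control skin, 7.20 and 7.48 in the hub and 8.39 and 7.93 at the LE at D4, and 6.23 and 6.27, 6.16 and 6.38, and 6.21 and 6.5 at D7. It stepped up without overlap at D4, and the groups overlapped at D7. The LE change was 2.3-fold at D4 (log2 fold change 1.20, SE 0.17, adjusted p = 0.00161) and 1.07-fold at D7 (0.10, adjusted p = 0.788). Against the hub at D4 it was 1.77-fold (adjusted p = 0.0267), a call lost in 3 of 12 fits without 1 array (up to 0.153, without LE D4 replicate 1). Plod2 was dim, above the array median on 7 of 12 arrays. It read 5.06 and 4.99, 5.54 and 4.98, and 6.24 and 6.10 in control, hub and LE at D4, and 4.35 and 4.09, 3.76 and 4.63, and 5.35 and 5.16 at D7. The LE stood above both other groups on both days and the hub overlapped control. Plod2 rose 2.21-fold at D4 (adjusted p = 0.0169) and 2.04-fold at D7 (adjusted p = 0.0273). Each call was lost in 4 of 12 fits without 1 array, with up to 0.088 without LE D4 replicate 1 and 0.153 without LE D7 replicate 1, and its other probe set, at a mean of 3.88, gave 0.26 and -0.01.

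Ddit4 encodes REDD1, which restrains mTORC1 under stress. It read 7.78 and 7.28 in control skin, 8.87 and 8.77 in the hub and 9.32 and 9.47 at the LE at D4, and 6.26 and 6.17, 6.90 and 7.59, and 7.64 and 7.58 at D7. Both wound regions lay above control on both days, and at D7 the higher hub array lay between the LE arrays. The LE change was 3.64-fold at D4 (log2 fold change 1.87, SE 0.22, adjusted p = 0.00048) and 2.63-fold at D7 (1.40, SE 0.22, adjusted p = 0.00268). The hub change was 2.44-fold at D4 (1.29, SE 0.22, adjusted p = 0.0479) and 2.04-fold at D7 (adjusted p = 0.0742). The hub call was lost in 9 of 12 fits without 1 array, with up to 0.332 without hub D4 replicate 1, and with the replicate number as a block (adjusted p = 0.0551). LE and hub differed by 0.58 (adjusted p = 0.203) and 0.37 (adjusted p = 0.474).

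Ndrg1, a stress gene of differentiating epithelium, read 10.61 and 10.57 in control skin, 10.75 and 10.51 in the hub and 11.76 and 11.50 at the LE at D4, and 9.52 and 9.37, 9.07 and 9.26, and 9.85 and 9.67 at D7. Hub and control overlapped at D4, and at D7 the hub lay under control and the LE above both. It rose 2.06-fold at the LE at D4 (log2 fold change 1.04, SE 0.14, adjusted p = 0.000922) and 2-fold above the hub (adjusted p = 0.00328), and differed by 0.31 from control at D7 (adjusted p = 0.173). Mxi1, a repressor that opposes MYC, read 9.03 and 8.38, 9.22 and 8.99, and 10.22 and 9.79 at D4, and 7.93 and 8.11, 8.30 and 8.08, and 8.37 and 8.40 at D7. The LE was above both other groups on both days, while hub and control overlapped. It rose 2.46-fold at the LE at D4 (1.30, SE 0.21, adjusted p = 0.00318), with 0.36 at D7 (adjusted p = 0.331), and was 1.87-fold above the hub at D4 (adjusted p = 0.0415). That last call was lost in 9 of 12 fits without 1 array, with up to 0.238 without hub D4 replicate 2. Kdm3a, a histone demethylase, differed by -0.34 and -0.44, and Ankrd37 by 0.12 and 0.02, and neither was called, although both are known HIF targets.

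The changes at the LE were compared between the days as a difference of differences, since an effect called on 1 day only is not shown to differ. Called higher on both days were 14 genes, at D4 only 7, namely Hk1, Pfkp, Pfkfb3, Bnip3l, P4ha2, Ndrg1 and Mxi1, and at D7 only Higd1a. Shares of all genes in these classes were not counted, and 8.3% of all genes were called higher at D4 and 9.25% at D7. The limma test of the difference called 0 of the 36 genes for LE against control, where 0.0292% of all genes were called, 0 for the hub against control, where 0% were, and 0 for LE against hub, where 0.0175% were. At an unadjusted p under 0.05, 8, 2 and 6 of the 36 genes had a smaller or more negative value at D7, and none a larger one, where 7.82%, 4.56% and 5.11% of all genes had such a p in either direction. The hub count is near that share. For the LE against control these were Bnip3, with a D7 change smaller by -1.03 (SE 0.21, adjusted p = 0.201), Pfkfb3 (-1.23, SE 0.31, adjusted p = 0.306), P4ha2 (-1.10, SE 0.25, adjusted p = 0.247), Mxi1 (-0.94), Adm (-0.79), Ndrg1 (-0.73), Egln3 (-0.73) and Pfkfb4 (-0.62). For Slc16a3 the difference between the days was -0.01 (SE 0.32), for Pgk1 0.01 (SE 0.14) and for Pfkl 0.07 (SE 0.17). The median of these differences was 0.03 for the 13 glycolytic enzymes and -0.24 for the other 23 genes.

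**Figure D4:**
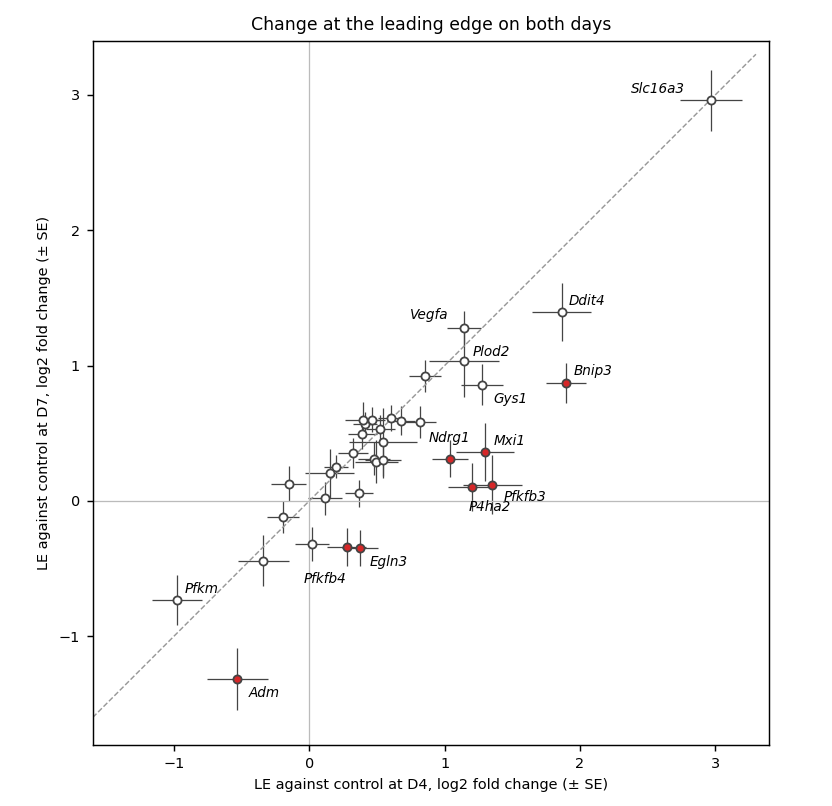
log2 fold change of the LE against control at D4 (x axis) and D7 (y axis) for the 36 measured genes, with bars of 1 SE and a dashed line where both days are equal. Filled points are the 8 genes with an unadjusted p under 0.05 for the difference between the days, none of which passed adjustment, and all 8 lie under the line.

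Other genes of the same pathways were listed beside the 40. Over 7 lists with 166 measured genes, 21 were called higher and 19 lower at the D4 LE, and 24 and 17 at the D7 LE. Of all genes tested, 8.3% were called higher and 5.83% lower at D4, and 9.25% and 5.37% at D7. Among 34 further genes of glycolysis and of glucose and lactate transport, 1 was called higher and 3 lower at the D4 LE, and 3 and 2 at the D7 LE. Slc16a1, which encodes the lactate transporter MCT1, rose by 1.25 (SE 0.23, adjusted p = 0.00515) and 1.14 (adjusted p = 0.00855). Its control arrays read 9.30 and 8.72 at D4 and 8.19 and 7.98 at D7, and its LE arrays 10.23 and 10.30, and 9.27 and 9.20, without overlap. The glucose transporter gene Slc2a12 fell by 2.02 at D4 (adjusted p = 0.00681) and by 1.72 at D7 (adjusted p = 0.0149). Gpd1l fell by 0.86 at D4 (adjusted p = 0.0221), Slc2a8 by 0.70 at D4 (adjusted p = 0.0173) and the fructose transporter gene Slc2a5 by 1.01 at D7 (adjusted p = 0.032). Gpd2, of the glycerol phosphate shuttle, rose by 0.56 at D7 (adjusted p = 0.0106).

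Among 20 genes listed for glycogen metabolism, 4 were called higher and 2 lower at the D4 LE, and 2 in each direction at the D7 LE. Of all genes, 8.3% were called higher and 5.83% lower at D4, and 9.25% and 5.37% at D7. The D7 count of higher calls is near its share. Pgm1, which links glycogen to glycolysis, rose by 1.21 (SE 0.15, adjusted p = 0.000677) and 0.86 (adjusted p = 0.00479). Pgm2 rose by 1.01 at D4 (adjusted p = 0.0148). Pgm3 rose by 1.05 and 0.97 (adjusted p = 0.0137 and 0.0199). It encodes a phosphoacetylglucosamine mutase and not a glycogen enzyme, and the counts of higher calls on both days include it. Pygl, which breaks glycogen down, fell by 1.53 at D7 (adjusted p = 0.00522). The lysosomal glycogen enzyme Gaa fell by 0.84 at D4 (adjusted p = 0.00132), and the phosphorylase kinase subunit Phka2 by 0.66 at D7 (adjusted p = 0.0376). Of 13 genes for the entry of pyruvate into mitochondria, 0 were called higher and 1 lower at the LE on each day. The lower count is near the 5.83% of all genes at D4 and 5.37% at D7. The gene called was Pdk2, a relative of Pdk1. It fell by 1.43 at D4 (SE 0.18, adjusted p = 0.000774) and by 1.26 at D7 (adjusted p = 0.00183), from 7.32 and 7.09 to 5.99 and 5.57 and from 6.53 and 6.76 to 5.16 and 5.62, without overlap.

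Of 51 other hypoxia response genes, 12 were called higher and 10 lower at the D4 LE, and 11 and 9 at the D7 LE, with medians of 0.15 and 0.04. Of all genes, 8.3% were called higher and 5.83% lower at D4, and 9.25% and 5.37% at D7. Car9, a carbonic anhydrase and one of the best-known HIF targets, rose by 3.22 at D4 (SE 0.26, adjusted p = 7.29e-05), from 5.44 and 4.80 to 8.52 and 8.16, and by 1.00 at D7 (adjusted p = 0.0322). Hmox1, a haem oxygenase that NRF2 also drives, rose by 3.05 and 2.66 (adjusted p = 2.39e-05 and 6.34e-05). At D4, the largest called decreases were in Selenbp1 (-2.43, adjusted p = 0.00503) and Trp53inp1 (-1.90, adjusted p = 8.99e-05), and at D7 Selenbp1 fell by 1.82 (adjusted p = 0.0211), Errfi1, a feedback inhibitor of EGFR by 1.70 (adjusted p = 0.000316) and Tmem45a by 1.53 (adjusted p = 0.000589). Of 9 markers of differentiated keratinocytes, Krt1, Krt10 and Calm4 were called lower at the D4 LE, beside 5.83% of all genes. They differed by -0.77, -0.69 and -0.82 (adjusted p = 0.0147, 0.0288 and 0.00161). Ivl, of the same 9, read 7.73 and 7.47 in control skin and 8.66 and 7.98 at the D4 LE, and was not called. The part of these markers in these values was not tested. In the hub, 0 of the 166 genes were called at D4 by limma, while an unadjusted p under 0.05 was found for 20 in the upward and 9 in the downward direction. Of all genes, 11% had such a p in either direction. At D7, Hmox1 and Ogdh were called higher (1.11 and 0.68, adjusted p = 0.0419 and 0.0188) and Errfi1 and Bhlhe40 lower (-1.01 and -0.59, adjusted p = 0.0371 and 0.0324). For LE against hub, 9 of the 166 were called higher and 7 lower at D4, and 3 and 4 at D7. Of all genes, 2.61% and 2.15% were at D4, and 1.33% and 1.4% at D7. The largest of the hypoxia list at D4 were Hmox1 (2.20), Car9 (2.14), Trp53inp1 (-1.54) and Errfi1 (-1.23).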

How the data were processed

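Affymetrix mouse arrays with perfect-match probes were made from amplified cDNA of sorted cells, and the authors deposited log2 values from RMA, which corrects background, equalises the arrays by quantiles and summarises each probe set. Its version is not given in the sources consulted. Of 45141 probe sets, 104 were controls, 28898 were paired with 1 gene in the annotation, 551 with several and 15588 with none, and only those with 1 gene were used. Dim probe sets were kept. The 40 genes and all lists were chosen with earlier results of these data known.

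A linear model with 6 group means was fitted to 17097 genes on 12 arrays in limma 3.58.1 under R 4.3.3 (6 residual degrees of freedom, Benjamini-Hochberg adjustment over all genes, adjusted p under 0.05), after tests on simulated data. Genes given with values on every array were those called in at least 1 of the 6 comparisons, up to the 16 largest, plus those going against the majority, plus Hif1a, Vegfa, Slc2a1, Ldha and Pdk1. From the pathway lists, up to 4 called genes per list were named for LE against control and hub against control. For LE against hub, only the 4 largest of the hypoxia list at D4 were named. Cell type markers were named where called against control, and only in part for LE against hub. Alternatives were another probe set or the mean of all, quantile normalization, centring, a filter on dim genes, array weights, another prior, 1 day at a time, a replicate block, the fold rule of the methods, and leaving out each array. The number of arrays limits the precision.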

Additional observations from a re-analysis of the deposited data

Results flagged for a closer look

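The probe set that Pgam1 shares with Pgam1-ps1 lay outside the comparisons above and showed a signal above control. Pgam1 encodes the phosphoglycerate mutase of glycolysis, and Pgam1-ps1 is a related pseudogene. The probe set read 10.93 and 11.02 in control skin, 11.43 and 11.35 in the hub and 11.77 and 11.69 at the LE at D4, and 10.04 and 9.96, 10.39 and 10.57, and 10.87 and 10.72 at D7. The groups stepped up without overlap on both days. On the log2 scale, the LE differed from control by 0.754 at D4 and 0.789 at D7, and the hub by 0.415 and 0.478. Signal of the gene and of the pseudogene cannot be told apart on this probe set.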

How the results depend on the processing

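The 22 genes of the set called for LE against control at D4 became 15 to 21 when an array was left out, and the 17 at D7 became 10 (without LE D7 replicate 1, with 11 without control D7 replicate 2) to 17. Hub against control ran from 0 to 1 at D4 and from 0 to 3 at D7. LE against hub ran from 4 (without LE D4 replicate 1, with 5 and 6 without hub D4 replicates 2 and 1) to 10 at D4, and from 0 (without LE D7 replicate 1 or hub D7 replicate 1) to 6 at D7. The differences between the days stayed at 0 in the limma fits of all settings tried. The study's own cut of over 2-fold in each replicate was applied to same-numbered pairs of arrays, a pairing that its methods do not state. For LE against control it named 8 genes at D4 and 3 at D7. The counts were 1 and 1 for hub against control, and 2 and 1 for LE against hub. A trended and robust prior gave 5 and 7 genes for the hub at D4 and D7 and 8 for LE against hub at D7. With the arrays of 1 day only, the hub counts were 0 and 1, LE against control at D4 lost Slc2a1, Hk1, Hk2, Pfkp, Pfkm, Pkm and Bnip3l, and LE against hub at D4 fell to 4 genes, without Slc16a3 (adjusted p = 0.0621). Quantile normalization ended the D4 call of Pfkp against control and those of Hk2 and Mxi1 against the hub. Without dim genes, or with array weights, the hub had 2 at D4.

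With the replicate block within the day, the hub calls fell to 0 on both days (adjusted p = 0.0551 for Ddit4, 0.062 for Slc16a3 and 0.0545 for Adm), LE against hub at D7 lost Hk2 and gained Pfkm and Ndrg1, and LE against control gained Higd1a at D4 and Aldoa at D7. The deviations of same-numbered arrays correlated at 0.17 to 0.25 at D4 and at 0.00 to 0.07 at D7, and each comparison holds 2 same-numbered pairs, so whether the numbers pair the arrays is not settled. Every D4 value was over 0.1 and no D7 value was. Other probe sets turned the LE difference from control for Pfkl at D7 (-0.354), Pfkfb3 at D7 (-0.009), Hif1a at D4 (-0.372) and Plod2 at D7 (-0.014). They also turned it for Pdk1, at D4 (-0.429 and -0.075) and at D7 (-0.727). Among genes not given in full, those for Pfkp, Higd1a, Aldoc, Egln1 and Slc2a3 were turned on at least 1 day. The causes were not tested.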

Other observations

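Of 17 genes of the tricarboxylic acid cycle, 2 were called higher at the LE at D4 and 4 at D7, where 8.3% and 9.25% of all genes were called higher and the D4 count is near that share. Dlst rose by 0.63 (adjusted p = 0.00522) and 0.73 (adjusted p = 0.00268), and Mdh2 by 0.36 (adjusted p = 0.0444) and 0.46 (adjusted p = 0.0151). Ogdh rose by 0.82 at D7 (adjusted p = 0.000695), with control arrays at 6.62 and 6.60 and LE arrays at 7.4 and 7.45, and Suclg1 by 0.53 (adjusted p = 0.0283). Of 12 genes of the pentose phosphate pathway, 1 was called higher at the LE on each day, near the 8.3% and 9.25% of all genes. This gene, Pgd, forms NADPH and rose by 0.96 at D4 (SE 0.14, adjusted p = 0.00142) and 0.90 at D7 (adjusted p = 0.00239). Its arrays read 10.00 and 9.98 in control skin and 10.85 and 11.05 at the LE at D4, and 8.68 and 8.91 against 9.81 and 9.57 at D7.

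Of 20 regulators and partners of HIF, 2 were called higher and 3 lower at the D4 LE, and 3 in each direction at the D7 LE, where 5.83% and 5.37% of all genes were called lower. The D4 count of higher calls lies near the 8.3% of all genes, and at D7 9.25% of all genes were called higher. Arntl, a clock gene whose protein is a relative of the HIF β subunit, fell by 1.81 at D4 (SE 0.50, adjusted p = 0.0374) and by 2.00 at D7 (adjusted p = 0.0252). Wsb1 fell by 0.87 and 0.64 (adjusted p = 0.0079 and 0.0324), and Crebbp, a coactivator, by 0.41 at D4 (adjusted p = 0.0215). Elob, a partner of VHL, rose by 0.47 and 0.63 (adjusted p = 0.0207 and 0.00533). Vhl itself rose by 0.66 at D7 (adjusted p = 0.0338), from 5.45 and 5.34 to 6.16 and 5.95.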
